A study of Mus musculus with 2 samples.

Results

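Glycolysis turns glucose into pyruvate and lactate, and its genes were followed here together with those that carry glucose and lactate across the membrane and those that cells switch on when oxygen is short. The 36 genes were taken by symbol from the 32285 genes of the table and fall into 17 enzymes, 4 transporters and 15 hypoxia genes. All 36 symbols were found. They were measured in B16F10 cells, a transplantable mouse melanoma line, that had grown in the bone of Prf1-/- mice, in the lung of Prf1-/- mice and in the lung of wild-type (WT) mice. Perforin, the product of Prf1, is what cytotoxic lymphocytes use to pierce their targets, so the genotype is that of the host and not of the tumour cells. Per the labels, lung tumours were cut out and digested, while knees were crushed and digested for longer, so digestion and site cannot be told apart. Live cells with GFP and without CD45 were sorted, each source was tagged with 1 of 3 hashtag antibodies, and the sources were pooled for a single 10x run with 1 RNA and 1 hashtag library. How many mice stand behind each source is not stated in the labels, and no source has a replicate library.

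After filtering there were 385 cells of Prf1-/- bone, 1520 of Prf1-/- lung and 1227 of WT lung, with 1299480, 4726709 and 3865546 unique molecular identifiers (UMIs) in all and medians of 3107, 2826.5 and 2909 per cell. Another 6270 cells had a barcode that the hashtag table does not list, and their source is not known. All 8 melanoma markers were detected in each source, at a summed level (CPM, counts per 1000000 UMIs of the source) of 10630 in Prf1-/- bone, 14170 in Prf1-/- lung and 13937 in WT lung. T and NK cell markers had 0 UMIs in the 3 sources, and the 5 neutrophil markers 0, 3 and 1. The 8 epithelial markers summed to 17.7 CPM in Prf1-/- bone, 13.1 in Prf1-/- lung and 198 in WT lung, with 2, 5 and 6 of them detected. The 6 monocyte and macrophage markers summed to 2.31, 2.33 and 17.9 CPM, with 2, 2 and 1 detected. In WT lung the 1 detected was Lyz2, so that sum is the level of a single gene. The melanoma sum was thus lowest in bone, and the epithelial sum and Lyz2 were highest in WT lung. Apart from the cell removal given below their part in the results was not tested. Prf1 had 0 UMIs in every source, so it gives no check of the host genotype.

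In hypoxic cells the prolyl hydroxylases (EGLN proteins) lose activity, HIF-1α escapes degradation, and HIF dimers bind promoters at a short core motif, ACGTG or GCGTG. Their targets include most glycolytic enzymes, the glucose transporter GLUT1, pyruvate dehydrogenase kinase and the mitophagy receptor BNIP3. Melanoma cells, like many tumours, ferment glucose to lactate even where oxygen is present. Lactate leaves or enters cells through the monocarboxylate transporters of the Slc16a family.

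Of the 36 genes, 33 had an entry in the RefSeq promoter table (GRCm38.p6), and in 30 of these at least 1 entry held ACGTG or GCGTG, on either strand, in the 250 bases before the start. That is 14 of 17 enzymes, 3 of 3 transporters and 13 of 13 hypoxia genes (90.9% of all). The motif is short and common: it was in 38.6% of all 32851 promoters, and in at least 1 promoter of 66.0% of the 4620 genes that reached 20 CPM in these cells and had an entry. A match describes the letters and shows no binding. The sequences below are those of the 5 genes that had a match, a window outside the annotated gene and, at a mean of 20 CPM or more, a difference of 1.5-fold or more between at least 1 pair of sources, so that the letters can be read beside the values that follow. They run 5′ to 3′ towards the start of the gene, with the matches in capitals.
Slc2a1, chr4:119108495-119108744, plus strand: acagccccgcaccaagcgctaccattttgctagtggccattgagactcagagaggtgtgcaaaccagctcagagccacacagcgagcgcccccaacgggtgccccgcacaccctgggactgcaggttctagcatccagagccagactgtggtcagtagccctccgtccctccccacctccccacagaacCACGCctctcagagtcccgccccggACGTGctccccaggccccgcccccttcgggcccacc
Bnip3, chr7:138909507-138909756, minus strand: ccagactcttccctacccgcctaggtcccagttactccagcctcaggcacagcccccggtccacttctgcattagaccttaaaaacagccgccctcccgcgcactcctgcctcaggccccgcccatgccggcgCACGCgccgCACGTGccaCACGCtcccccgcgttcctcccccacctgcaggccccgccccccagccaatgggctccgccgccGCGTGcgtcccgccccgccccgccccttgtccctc
Eno1, chr4:150236458-150236707, plus strand: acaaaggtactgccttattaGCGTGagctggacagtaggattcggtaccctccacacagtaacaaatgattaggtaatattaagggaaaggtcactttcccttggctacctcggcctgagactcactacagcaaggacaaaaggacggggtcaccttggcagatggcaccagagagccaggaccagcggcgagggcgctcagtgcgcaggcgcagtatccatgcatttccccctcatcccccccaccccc
Egln1, chr8:124949255-124949504, minus strand: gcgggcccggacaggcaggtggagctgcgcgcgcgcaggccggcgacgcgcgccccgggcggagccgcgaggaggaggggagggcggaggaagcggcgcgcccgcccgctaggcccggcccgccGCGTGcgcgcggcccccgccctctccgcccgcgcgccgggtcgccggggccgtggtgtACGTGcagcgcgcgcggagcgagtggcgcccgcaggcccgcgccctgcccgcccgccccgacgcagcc
Pfkl, chr10:78009808-78010057, minus strand: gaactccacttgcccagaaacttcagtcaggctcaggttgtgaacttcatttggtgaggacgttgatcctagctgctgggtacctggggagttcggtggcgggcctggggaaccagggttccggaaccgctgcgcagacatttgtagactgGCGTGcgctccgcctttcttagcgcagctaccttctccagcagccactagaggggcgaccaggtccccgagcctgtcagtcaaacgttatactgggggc
Slc2a1 holds matches 61 and 36 bases before the start. Bnip3 holds 5, of which a pair overlaps as the palindrome CACGTG 108 bases before the start. Egln1 has matches at 126 and 68 bases, Pfkl at 99 and the Eno1 window shown at 230. Other Eno1 entries, with overlapping windows inside the annotated gene, hold matches at 86 and 62 bases and at 113 and 89 bases before their starts.

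UMIs were summed over the cells of a source and divided by its total. A gene was called higher or lower when the CPM ratio was 1.5 or more, or its inverse, at a mean of 20 CPM or more over the 2 sources. With 1 tagged pool per source there is no test, and the 95% intervals given are exact but cover counting error only, not the spread between cells or mice. For Prf1-/- lung over WT lung, 21 of the 36 genes reached 20 CPM, 2 were higher (Bnip3 and Kdm3a) and 0 were lower, where 0.226% of the 5749 genes at that level were higher and 0.626% lower. For Prf1-/- bone over Prf1-/- lung, 23 genes reached it, 2 were higher (Eno1 and Slc16a7) and 0 lower, with 2.3% of 5657 genes higher and 4.72% lower. Both comparisons use the Prf1-/- lung cells, so a value that is high there moves them in opposite directions. Against WT lung, Prf1-/- bone had 6 of 23 genes higher (Pfkl, Eno1, Slc2a1, Slc16a7, Bnip3 and Egln1) and 0 lower, with 2.14% of 5659 genes higher and 5.34% lower. Slc2a1 and Slc16a7 reached 20 CPM in the bone comparisons and not between the lungs, so their place in these counts is in part fixed by the filter.

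**Figure D1:**
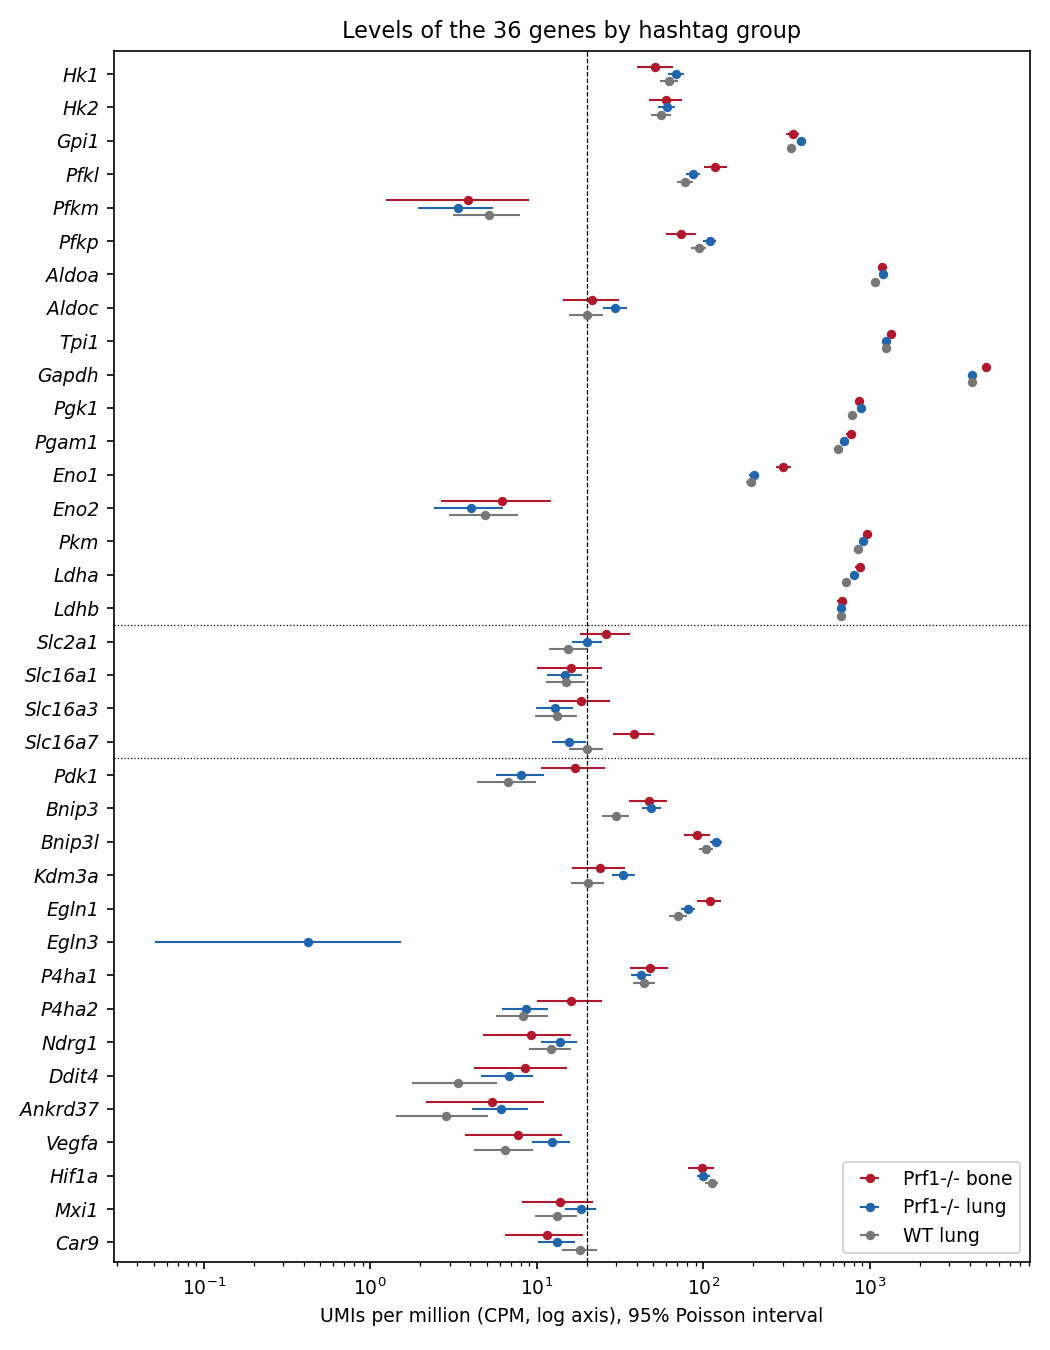
Level of each gene in CPM (log axis) in cells of Prf1-/- bone (red), Prf1-/- lung (blue) and WT lung (grey), with 95% Poisson intervals; dotted lines part the enzymes, transporters and hypoxia genes, and the dashed line marks 20 CPM. Most enzymes lie close together in the 3 sources, while Eno1 and Slc16a7 stand out in bone; Egln3 had 0 UMIs in bone and in WT lung and has no point there.

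Over all cells, the glycolytic enzymes were at similar levels in the 3 sources. Their 17 genes summed to 12680 CPM in Prf1-/- bone, 11478 in Prf1-/- lung and 11001 in WT lung. The ratio of the sums was 1.10 (1.09 to 1.12) for Prf1-/- bone over Prf1-/- lung and 1.04 (1.03 to 1.06) for Prf1-/- lung over WT lung. Gapdh, the glyceraldehyde phosphate dehydrogenase, has the largest share of that sum, and without it the ratios were 1.04 (1.01 to 1.06) and 1.08 (1.06 to 1.09). Of the 15 enzymes at 20 CPM, 8 were above and 7 below 1 in the first comparison, with a median log2 ratio of 0.02, and 12 were above 1 in the second, with a median of 0.14. The medians over all genes were -0.02 and 0.00. Pfkm and Eno2, the muscle and neuronal forms, stayed below 20 CPM, with 5, 16 and 20 UMIs for Pfkm and 8, 19 and 19 for Eno2 in Prf1-/- bone, Prf1-/- lung and WT lung.

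The 4 enzymes with most UMIs were Gapdh, Tpi1, Aldoa and Pkm. Gapdh had 5023 CPM in Prf1-/- bone, 4095 in Prf1-/- lung and 4137 in WT lung, so bone stood above both lungs at 1.23 times Prf1-/- lung (1.19 to 1.26), and the lungs differed by a ratio of 0.99 (0.969 to 1.01). Tpi1, the triose phosphate isomerase, had 1339, 1256 and 1260 CPM in the same order. Aldoa, the main aldolase, had 1186, 1194 and 1076 CPM, with a ratio of 1.11 (1.07 to 1.16) for Prf1-/- lung over WT lung. A second identifier named Aldoa held 0, 0 and 1 UMIs and was kept apart. Pkm, the pyruvate kinase that closes the pathway, had 963, 914 and 846 CPM, with a ratio of 1.08 (1.03 to 1.13) for Prf1-/- lung over WT lung. The 1.23 of Gapdh was the largest ratio among these 4 genes. Pgk1, which makes the first ATP of the pathway, followed with 868, 891 and 782 CPM. Reads of Gapdh and other abundant enzymes can also match their pseudogenes, and how such reads were assigned is not stated in the labels.

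Eno1, the enolase (ENSMUSG00000063524, chr4:150236708-150248879), was past 1.5-fold in bone against both lungs. Its level was 303 CPM (274 to 335) in Prf1-/- bone, 201 (189 to 214) in Prf1-/- lung and 194 (180 to 208) in WT lung. Bone lay above both lungs, which overlap. The ratio was 1.51 (1.34 to 1.70) over Prf1-/- lung and 1.56 (1.38 to 1.77) over WT lung, the first just past the 1.5 used here. The log2 ratio over Prf1-/- lung was 0.59, and it fell short of the call without the cell with most Eno1 UMIs in each source, at 0.57, and with a minimum of 500, 1500 or 2000 genes per cell, at 0.55, 0.51 and 0.35. Over WT lung it was 0.64, and 0.57 and 0.33 in cells with at least 1500 and 2000 genes, again short of the call. Eno1 was seen in 61.8% of bone cells, 42.4% of Prf1-/- lung cells and 43.3% of WT lung cells, and after each cell was thinned to 1500 UMIs in 40.0%, 24.4% and 24.8%. No cell type that lacks Eno1 was sorted, so no share due to free RNA can be set beside these. Eno1b, a near-identical copy, held 11, 27 and 18 UMIs, and reads may be split between the copies.

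Phosphofructokinase, the committed step of glycolysis, differed between bone and lung in which of its genes was read. Pfkl, the liver form, had 119 CPM in Prf1-/- bone, 86.7 in Prf1-/- lung and 77.9 in WT lung. Pfkp, the platelet form, had 73.9, 110 and 94.2 CPM, the reverse order for bone. The ratio for bone over Prf1-/- lung was 1.37 (1.13 to 1.65) for Pfkl and 0.674 (0.536 to 0.840) for Pfkp, neither past the call and Pfkp just short of it. Pfkl thus held 60.4% of the phosphofructokinase UMIs in Prf1-/- bone (54.1 to 66.4), 43.4% in Prf1-/- lung (40.2 to 46.7) and 43.9% in WT lung (40.2 to 47.8). The 2 lungs overlap, and bone lies above both. The Pfkl log2 ratio of bone over Prf1-/- lung, 0.45 over all cells, changed with the cells taken and with thinning. It was 0.06 in cells with at least 1500 genes, on full counts, and past 1.5-fold after thinning each cell to 1500 UMIs (0.74). On the same thinned counts it was also past 1.5-fold in cells with 0 UMIs of 22 mitosis genes (0.84) and in those with 2 or more (0.99). The thinned values share a single random draw. Over WT lung Pfkl was called, at 1.52 (1.25 to 1.85), and that call ended in 5 of the 17 alternatives that change its values, with log2 ratios as low as 0.08 in cells with at least 2000 genes. UMI counts at the 3′ end are not scaled by transcript length and genes can differ in capture, so such shares are compared between sources and not between genes.

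**Figure D2:**
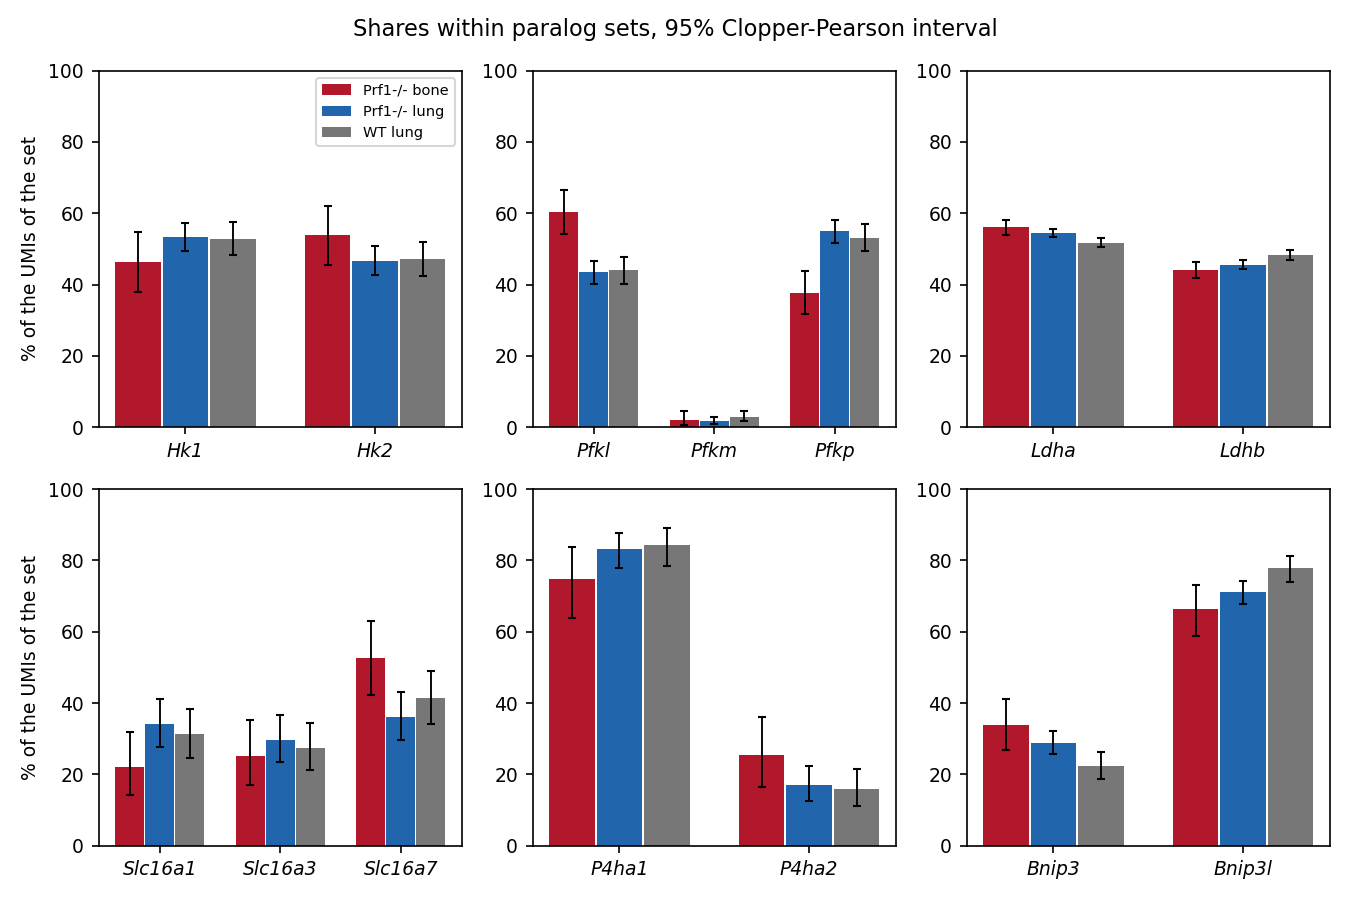
Share of each gene in the UMIs of its paralog set (%), in Prf1-/- bone (red), Prf1-/- lung (blue) and WT lung (grey), with 95% Clopper-Pearson intervals. Pfkl takes 60.4% of its set in bone, where the lungs have 43.4% and 43.9%, and Bnip3 takes 22.3% of its set in WT lung, below both Prf1-/- sources.

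The A form of lactate dehydrogenase, which favours making lactate, had a slightly larger share in both Prf1-/- sources than in WT lung. Ldha had 870 CPM in Prf1-/- bone, 802 in Prf1-/- lung and 725 in WT lung, and Ldhb, the form favoured by oxidative tissues, 683, 672 and 675. The Ldha share of their UMIs was 56.0% (53.8 to 58.2), 54.4% (53.2 to 55.6) and 51.8% (50.4 to 53.1). WT lung lay below both Prf1-/- sources in Ldha while Ldhb was level. The ratio of Ldha was 1.11 (1.05 to 1.16) for Prf1-/- lung over WT lung and 1.08 (1.01 to 1.16) for bone over Prf1-/- lung, small against the 1.5 used for a call.

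The remaining enzymes differed little. Hexokinase genes Hk1 and Hk2, which trap glucose in the cell, had 51.6 and 60.0 CPM in Prf1-/- bone, 69.0 and 60.3 in Prf1-/- lung, and 62.6 and 55.9 in WT lung. Hk1 was lower in bone than in Prf1-/- lung, at a ratio of 0.748 (0.566 to 0.975). Aldoc, a minor aldolase, had 21.5 CPM in Prf1-/- bone, 29.6 in Prf1-/- lung and 19.9 in WT lung, and its ratio of 1.49 (1.12 to 1.99) between the lungs fell just short of the call. Gpi1 and Pgam1, the isomerase and mutase, had ratios between the lungs of 1.15 and 1.09.

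The transporters were read at low levels, with Slc16a7 the exception in bone. The 4 genes summed to 99.3 CPM in Prf1-/- bone, 63.5 in Prf1-/- lung and 63.6 in WT lung. Slc16a7, which encodes MCT2, a monocarboxylate carrier with high affinity for its substrates (ENSMUSG00000020102, chr10:125219270-125389586), had 38.5 CPM (28.6 to 50.7) in Prf1-/- bone, 15.7 (12.3 to 19.7) in Prf1-/- lung and 19.9 (15.7 to 24.9) in WT lung. These rest on 50, 74 and 77 UMIs. Bone lay above both lungs, which overlap: the ratio was 2.46 (1.68 to 3.57) over Prf1-/- lung and 1.93 (1.33 to 2.79) over WT lung. Slc16a7 UMIs were in 47 of 385 bone cells, and no bone cell held more than 2, so no single cell made the difference. Over Prf1-/- lung the log2 ratio was past the call in each of the 17 alternatives that change its values. Over WT lung it lay between 0.37 and 1.64, and the call ended in cells with at least 2000 genes, at 0.37.

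Bone also held a set of cells rich in Cck, the cholecystokinin gene, and Slc16a7 was read more in them. Cells with 10 or more Cck UMIs numbered 97 of 385 in Prf1-/- bone, 38 of 1520 in Prf1-/- lung and 24 of 1227 in WT lung. In bone, Slc16a7 had 59.8 CPM (36.5 to 92.3) in these 97 cells and 31.1 (21.0 to 44.4) in the other 288. Without the Cck-rich cells of every source the log2 ratio of bone over Prf1-/- lung was 1.01, against 1.30 with them, and over WT lung 0.67 against 0.95. Slc16a7 thus stayed past 1.5-fold in cells with fewer than 10 Cck UMIs.

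The other carriers did not separate the sources as clearly. Slc2a1, which encodes the glucose transporter GLUT1, had 26.2 CPM (18.1 to 36.6) in Prf1-/- bone, 20.1 (16.3 to 24.6) in Prf1-/- lung and 15.5 (11.8 to 20.0) in WT lung. Its ratio for bone over WT lung, 1.69 (1.07 to 2.61), rests on 34 and 60 UMIs, and its log2 value of 0.75 was 0.09 after thinning, -0.58 in cells with at least 2000 genes and -1.03 in cells with 2 or more mitosis UMIs. A difference in Slc2a1 could therefore not be read at this depth. Slc16a1 (MCT1), the widespread lactate carrier, had 16.2, 14.8 and 15 CPM in Prf1-/- bone, Prf1-/- lung and WT lung, and Slc16a3 (MCT4), the carrier typical of glycolytic cells, 18.5, 12.9 and 13.2. All their intervals overlap. Bsg, the chaperone of MCT1 and MCT4, had 699, 752 and 702 CPM.

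**Figure D3:**
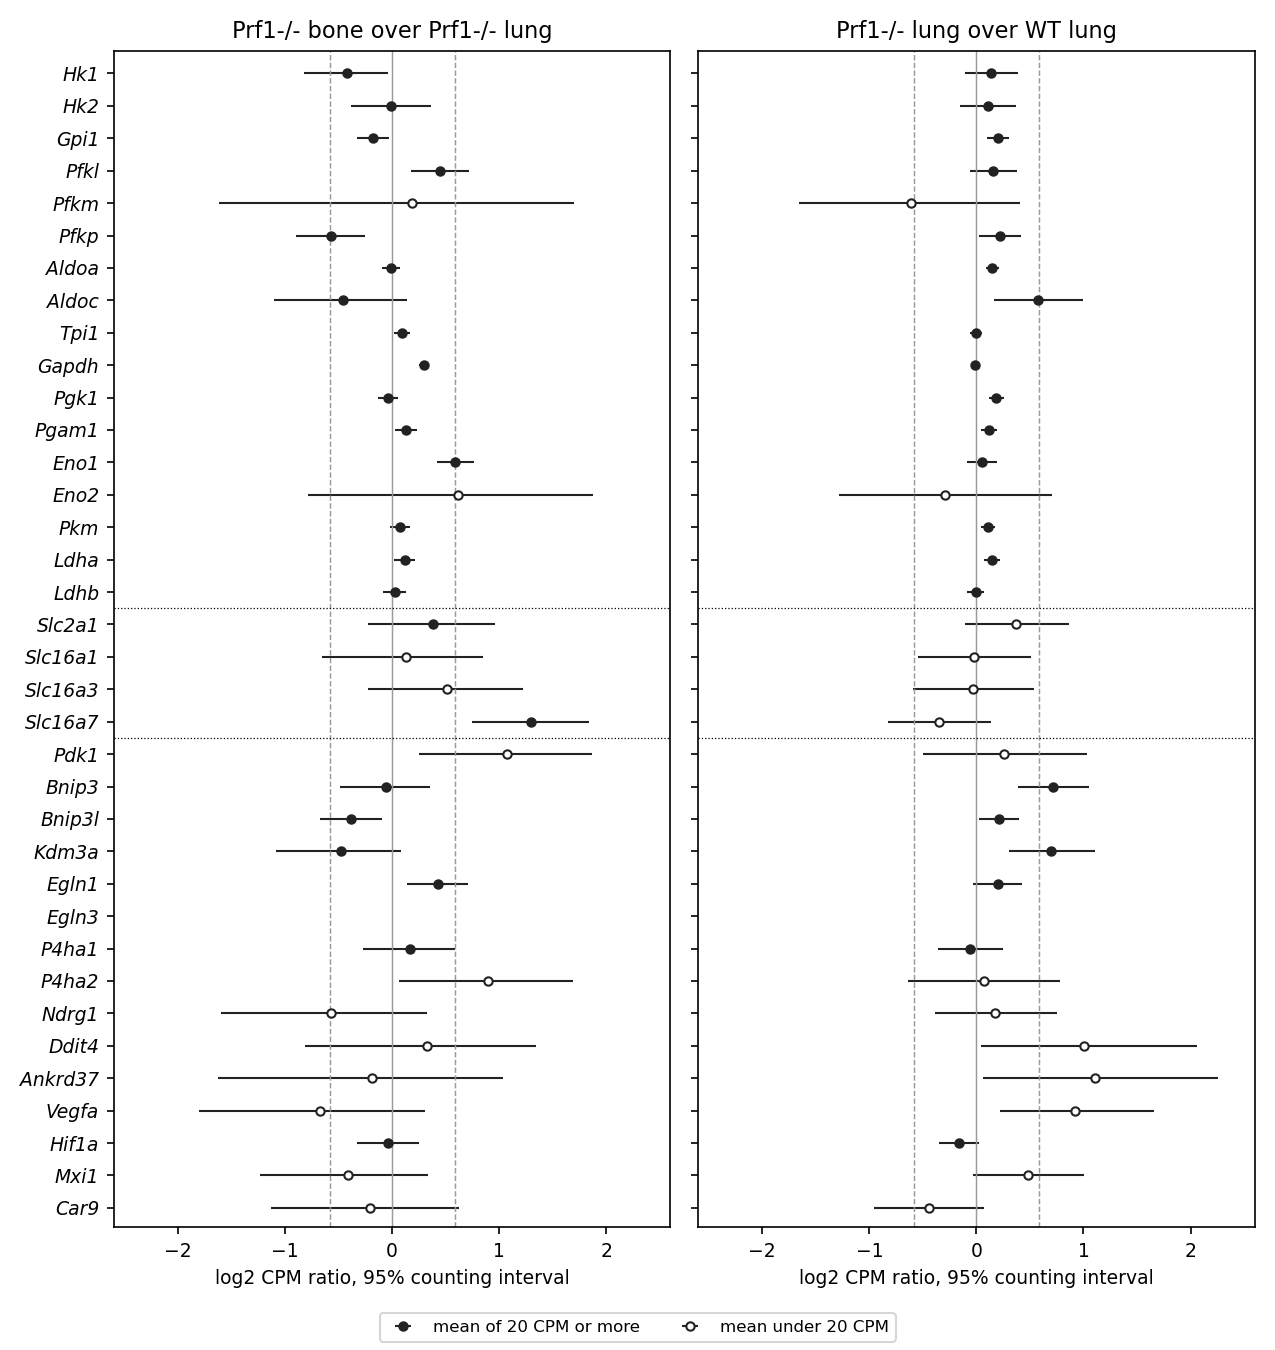
Log2 CPM ratio of each gene for Prf1-/- bone over Prf1-/- lung (left) and Prf1-/- lung over WT lung (right), with 95% counting intervals; filled points had a mean of 20 CPM or more, dashed lines mark 1.5-fold. Slc16a7 and Eno1 are past the line on the left, Bnip3 and Kdm3a on the right; Egln3 is not drawn because at least 1 source of each pair had 0 UMIs.

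Summed over the list, the hypoxia genes were higher in Prf1-/- lung than in WT lung and level between Prf1-/- bone and Prf1-/- lung, but the lung difference was not seen in cells with mitotic transcripts. The 15 genes summed to 507.1 CPM in Prf1-/- bone, 513.9 in Prf1-/- lung and 452.2 in WT lung, a ratio of 1.14 (1.07 to 1.21) for Prf1-/- lung over WT lung and 0.987 (0.904 to 1.08) for bone over Prf1-/- lung. After thinning, the sum was 559.6 CPM (517.1 to 604.8) in Prf1-/- lung and 453.2 (410.5 to 499.2) in WT lung in cells with 0 mitosis UMIs. In cells with 2 or more it was 466.5 (419.1 to 517.9) and 512.6 (460.0 to 569.6), the reverse order with intervals that overlap. Only 6 reached 20 CPM: Bnip3, Bnip3l, Kdm3a, Egln1, P4ha1 and Hif1a. Their median log2 ratio was 0.21 between the lungs and -0.05 between bone and Prf1-/- lung, and between the lungs it was -0.23 in cells with 2 or more mitosis UMIs.

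Bnip3, the mitophagy receptor (ENSMUSG00000078566, chr7:138890836-138909506), had 46.9 CPM (35.9 to 60.3) in Prf1-/- bone, 48.9 (42.8 to 55.6) in Prf1-/- lung and 29.8 (24.6 to 35.7) in WT lung. WT lung lay below both Prf1-/- sources, with a ratio of 1.64 (1.31 to 2.07) for Prf1-/- lung over WT lung and 1.58 (1.14 to 2.17) for bone over WT lung. The log2 ratio for bone over WT lung, 0.66, fell just short of the call after thinning (0.57) and with hashtags at 5 times the second (0.58), and was 0.37 in cells with 2 or more mitosis UMIs. Between the lungs the call ended in cells with at least 2000 genes, at 0.44. Its relative Bnip3l, also a mitophagy receptor, had 92.3, 120 and 104 CPM in Prf1-/- bone, Prf1-/- lung and WT lung. Bnip3 thus held 33.7% (26.9 to 41.1), 28.9% (25.8 to 32.2) and 22.3% (18.8 to 26.1) of the UMIs of the pair. The intervals of the lungs overlap for this share. Kdm3a, a histone H3 lysine demethylase (ENSMUSG00000053470, chr6:71588970-71632990), had 33.2 CPM (28.2 to 38.8) in Prf1-/- lung and 20.4 (16.2 to 25.5) in WT lung, a ratio of 1.63 (1.23 to 2.16). In bone Kdm3a had 23.9 CPM (16.2 to 33.9), on 31 UMIs. Its ratios were 0.718 (0.472 to 1.06) over Prf1-/- lung and 1.17 (0.745 to 1.79) over WT lung. Both intervals cover 1, so the place of bone was not resolved for Kdm3a. The epithelial markers and Lyz2 were also higher in WT lung, as given above. In Prf1-/- lung 2 cells and in WT lung 7 held 2 or more UMIs of epithelial or myeloid markers. Without these cells the log2 ratios were 0.72 for Bnip3 and 0.70 for Kdm3a, as over all cells. In cells with at least 1500 genes, 583 and 516 per lung, Kdm3a fell short of the call at a log2 ratio of 0.27, and just short of it in cells with 0 mitosis UMIs, at 0.58.

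The lung difference in Bnip3 was seen in the cells without mitotic transcripts. In cells with 0 mitosis UMIs after thinning, Bnip3 had 57.9 CPM (44.8 to 73.7) in Prf1-/- lung and 27.5 (17.8 to 40.6) in WT lung. Where 2 or more such UMIs were present, it had 35.8 (23.6 to 52.1) and 34.1 (21.6 to 51.1). The log2 ratios were 1.07 and 0.07, and the difference between them was not tested. The shares of cells with 0 mitosis UMIs were 50.03% in Prf1-/- lung and 49.4% in WT lung. In Prf1-/- bone 38.7% of cells had 0 and 43.4% had 2 or more, against 33.1% with 2 or more in Prf1-/- lung, so a larger share of the bone cells carried mitotic transcripts.

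Of the oxygen sensors, Egln1 was highest in bone over all cells and Egln3 was barely read. For their target, Hif1a, no order over the sources could be read. Egln1, the prolyl hydroxylase PHD2 (ENSMUSG00000031987, chr8:124908587-124949254), had 109 CPM (92.0 to 129) in Prf1-/- bone, 81.0 (73.1 to 89.6) in Prf1-/- lung and 70.6 (62.5 to 79.5) in WT lung. Bone lay above both lungs, at 1.35 (1.10 to 1.64) times Prf1-/- lung and 1.55 (1.25 to 1.90) times WT lung. Over Prf1-/- lung the log2 ratio, 0.43, lay between 0.065 and 0.51 over the alternatives. In thinned cells with 2 or more mitosis UMIs the levels were 108 (71.0 to 157), 76.9 (58.4 to 99.4) and 93.3 CPM (71.7 to 119), with intervals that overlap. The call over WT lung, a log2 ratio of 0.63, ended in 5 of the 17 alternatives that change its values: 0.44 in cells with at least 1500 genes, 0.58 and 0.44 with hashtags at 3 and 5 times the second, 0.50 after thinning and 0.21 in cells with 2 or more mitosis UMIs. Egln3, the prolyl hydroxylase PHD3, was barely read, with 0, 2 and 0 UMIs, and 3 UMIs would be 2.31 CPM in Prf1-/- bone and 0.776 in WT lung. Hif1a, whose product is regulated mostly as a protein, had 97.7, 100 and 112 CPM. Its ratios were 0.893 (0.782 to 1.02) between the lungs and 0.975 (0.795 to 1.19) for bone over Prf1-/- lung.

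P4ha1 and P4ha2, collagen prolyl hydroxylases, and Pdk1, the kinase that keeps pyruvate out of mitochondria, had low counts, and no direction is read from genes under 20 CPM. P4ha1 had 47.7 CPM in Prf1-/- bone, 42.5 in Prf1-/- lung and 44.2 in WT lung. Pdk1 had 16.9 CPM in Prf1-/- bone (22 UMIs), 8.04 in Prf1-/- lung (38) and 6.73 in WT lung (26), and P4ha2 16.2 (21 UMIs), 8.67 (41) and 8.28 (32). The ratios over Prf1-/- lung were 2.11 (1.19 to 3.65) and 1.86 (1.05 to 3.23). Vegfa, the vascular growth factor, had 7.70 CPM in Prf1-/- bone, 12.3 in Prf1-/- lung and 6.47 in WT lung, with a ratio between the lungs of 1.90 (1.17 to 3.17). Ddit4, an inhibitor of mTORC1 signalling, and Ankrd37 had ratios between the lungs of 2.01 (1.03 to 4.18) and 2.16 (1.05 to 4.78), on 32 and 29 UMIs in Prf1-/- lung and 13 and 11 in WT lung. Car9, the membrane carbonic anhydrase often used as a hypoxia marker, had 11.5 CPM in Prf1-/- bone, 13.3 in Prf1-/- lung and 18.1 in WT lung, a ratio of 0.736 (0.515 to 1.05) between the lungs. Ndrg1 and the MYC antagonist Mxi1 had 9.23 and 13.9 CPM in Prf1-/- bone, 13.8 and 18.4 in Prf1-/- lung, and 12.2 and 13.2 in WT lung.

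Within each source, cells with hypoxia transcripts also held more glycolytic transcripts. Every cell was thinned to 1500 UMIs, which left out 1 Prf1-/- lung cell and 6 unlisted ones, and cells with at least 1 UMI of Bnip3, Ankrd37, Egln3, Car9, Ndrg1, Vegfa, P4ha1 or Pdk1 were set against those with 0. They were 18.2% of cells in Prf1-/- bone, 16.7% in Prf1-/- lung and 14.8% in WT lung. The summed enzymes had 15476 CPM in such cells against 12025 in the rest in Prf1-/- bone, 14859 against 10463 in Prf1-/- lung, and 14961 against 10149 in WT lung. The ratios were 1.29 (1.22 to 1.36), 1.42 (1.38 to 1.46) and 1.47 (1.42 to 1.53). No enzyme was used to split the cells. For the enzyme sum, the contrast within each source was larger than any between the sources over all cells. The largest of those was 1.15 (1.13 to 1.17) for Prf1-/- bone over WT lung. The sources lay further apart in thinned cells with 0 mitosis UMIs, at 13284.1 CPM in Prf1-/- bone, 11030.7 in Prf1-/- lung and 10378.4 in WT lung. With 2 or more such UMIs the sums were 12255.5, 11496.4 and 11674.1 in the same order. Ratios between sources within these subsets were not set beside the split. The summed mitosis genes had ratios of 1.05, 0.861 and 1.11, so they did not follow the split in 1 direction.

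Among the enzymes, Ldha had 1276 CPM in cells with a hypoxia marker UMI and 755.6 in the rest in Prf1-/- bone, 1181 and 698.3 in Prf1-/- lung, and 1083 and 628.4 in WT lung. The 3 ratios, 1.69, 1.69 and 1.72, nearly coincide. Pgk1 had ratios of 1.43, 1.65 and 1.65, and Gapdh 1.22, 1.34 and 1.40. Not every enzyme was higher in marker cells. Ldhb had ratios of 0.792 (0.585 to 1.06), 0.888 (0.768 to 1.02) and 1.04 (0.890 to 1.22). Pfkl was at 0.844 (0.414 to 1.58) in Prf1-/- bone, against 1.99 and 2.07 in the lungs. Slc16a3 (MCT4) had 57.1 CPM with and 8.47 without a marker UMI in Prf1-/- bone, 36.9 and 7.90 in Prf1-/- lung, and 44.2 and 10.8 in WT lung. It was higher in the marker cells of each source, though on 6, 14 and 12 UMIs there. Slc16a7, in contrast, had 28.6 and 42.3 CPM in Prf1-/- bone, 13.2 and 17.4 in Prf1-/- lung, and 18.4 and 18.5 in WT lung, so it was not higher in marker cells in any of the 3, on 3, 5 and 5 UMIs there. Egln1 had ratios of 2.46 (1.41 to 4.19), 2.30 (1.65 to 3.17) and 2.18 (1.48 to 3.16).

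**Figure D4:**
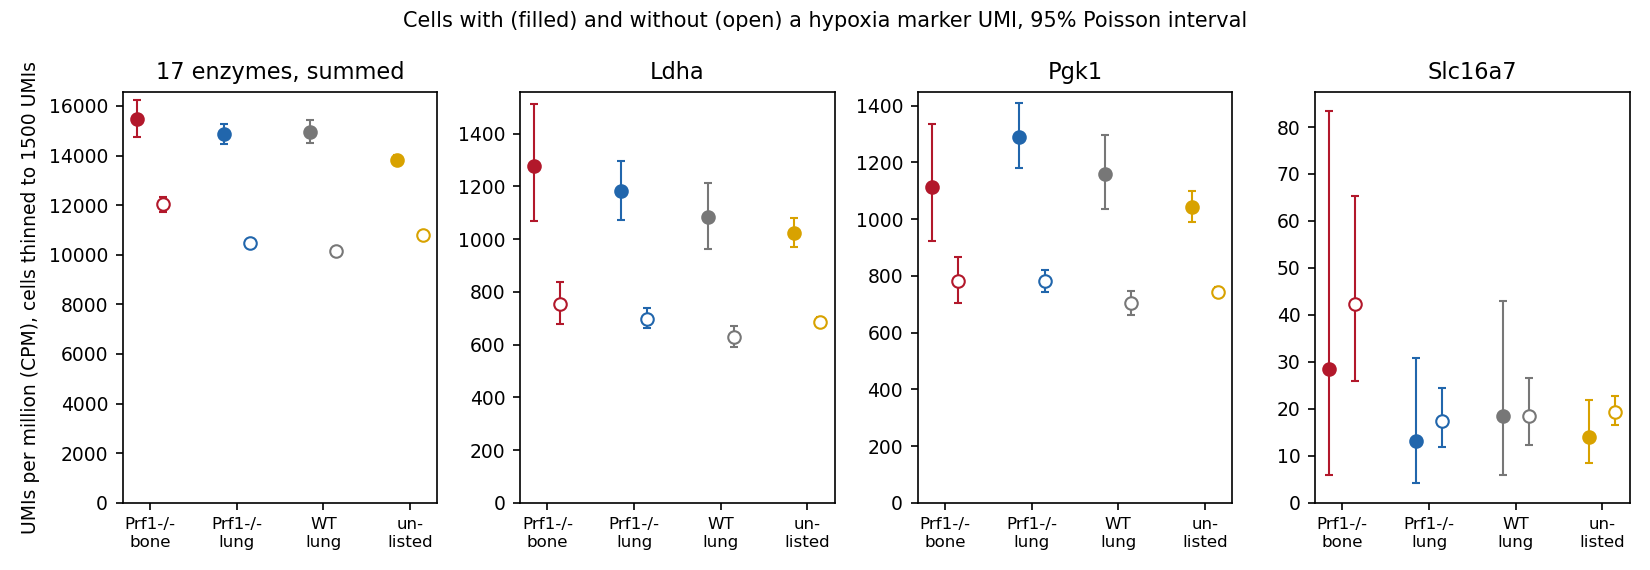
CPM of the summed enzymes, Ldha, Pgk1 and Slc16a7 in cells with at least 1 UMI (filled) and with 0 UMIs (open) of 8 hypoxia markers, after thinning each cell to 1500 UMIs, with 95% Poisson intervals. The enzymes, Ldha and Pgk1 are higher in the filled points of every source. Slc16a7 is not resolved, with 3, 5 and 5 UMIs in the filled points of Prf1-/- bone, Prf1-/- lung and WT lung.

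By the 1.5-fold call, 12 of the 22 genes outside the split that reached 20 CPM in Prf1-/- lung were higher in marker cells and 1, Hif1a, was lower, where 6.01% of 5776 genes were higher and 7.1% lower. In WT lung it was 10 of 19 higher and 2 lower (Hk1 and Kdm3a), with 8.33% of 5713 genes higher and 8.47% lower. In Prf1-/- bone it was 8 of 23 higher and 0 lower, but there 22.4% of 5633 genes were higher and 15.1% lower, in 70 marker cells. Among the enzymes alone, 4 of 15 were higher in Prf1-/- bone, 7 of 15 in Prf1-/- lung and 7 of 14 in WT lung. The counts of lower genes in the lungs lie near the share of all genes. In both Prf1-/- sources Slc2a1, Slc16a3 and Mxi1, and in WT lung Slc16a3, were under 20 CPM in the cells without a marker UMI, so they entered the counts of higher genes through the cells where they are high. Kdm3a entered the lower count of WT lung in the same way, through the cells without one. Kdm3a did not follow the split, with 2, 19 and 4 UMIs in the marker cells. In the unlisted cells, which have no source label, 5 of 20 were higher and 0 lower, with 1.08% of 5766 genes higher and 0.85% lower, and Ldha was at 1.49 (1.40 to 1.58). Aldoc and Slc2a1 were there under 20 CPM in the cells without a marker UMI. Marker cells are those in which at least 1 rare molecule was read, so the groups mix cells that differ in more than these genes, and the part of that in the ratios was not tested.

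Wider lists of the same pathways held 0 or 1 called gene in each direction and comparison. Of 49 other genes of glucose metabolism, 23 reached 20 CPM between the lungs and 22 in both bone comparisons. None was past 1.5-fold between the lungs or for bone over Prf1-/- lung, and 1, Tigar, a fructose bisphosphatase, was higher for bone over WT lung at 24.6 and 16.0 CPM, a ratio of 1.54 (0.970 to 2.39). Of 40 other hypoxia genes, 18 reached 20 CPM in each comparison, and none was past it between the lungs. Over Prf1-/- lung 0 were higher and 1 lower in bone, and over WT lung 1 was higher and 1 lower. The shares of all genes were 0.226% higher and 0.626% lower between the lungs, 2.3% and 4.72% for bone over Prf1-/- lung, and 2.14% and 5.34% for bone over WT lung, so these counts are read as no result about the lists. Ddit3, which encodes the stress transcription factor CHOP, was lower in Prf1-/- bone. It had 105 CPM there, 189 CPM in Prf1-/- lung and 161 CPM in WT lung. Its ratios were 0.553 (0.459 to 0.663) and 0.651 (0.537 to 0.785). Pgf, the placental growth factor, had 30.0 CPM in Prf1-/- bone, 20.3 in Prf1-/- lung and 13.5 in WT lung. It was called higher for bone over WT lung at 2.23 (1.43 to 3.45). Tigar and Pgf were under 20 CPM in WT lung, so each entered the higher count through bone, where it is high. The interval of the Tigar ratio covers 1.

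In the 6270 unlisted cells none of the 21 genes at 20 CPM was past 1.5-fold against the 3132 tagged cells, where 0.0876% of 5708 genes were higher and 0.228% lower. The enzymes summed to 11407 CPM in unlisted cells and 11450 in tagged cells. The hypoxia genes summed to 435.8 and 488.9 CPM, a ratio of 0.891 (0.859 to 0.925), and each of the 6 at 20 CPM was below 1. Bnip3 had 32.9 CPM in unlisted cells, close to its WT lung level, and Slc16a7 18.8 CPM, close to both lungs. Eno1 had 242 CPM (234 to 250) there and Gapdh 4365 (4333 to 4397), each above both lungs and below Prf1-/- bone. No source can be given to the unlisted cells from such levels. The unlisted cells were shallower, with a median of 2418 UMIs against 2897, and the part of depth in these ratios was not tested. The hypoxia median log2 ratio of unlisted over tagged cells was -0.19 over all cells and -0.23 after thinning every cell to 1500 UMIs. It was -0.042 in cells with at least 2000 genes, of which 148 were unlisted. The enzyme median was -0.076 over all cells, -0.0299 after thinning and -0.063 at 2000 genes.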

How the data were processed

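UMI counts per gene and cell, and counts per hashtag and cell, were used as deposited by the authors. The mm10 build, Seurat 4.3.0 and Cell Ranger 6.1.2 appear in the submitters' processing notes; a file header gives Cell Ranger 6.0.0 instead. The RNA table holds 15961 barcodes and 6208 are in the table of hashtags, of which 4204 are shared. Barcodes under 1000 genes or over 15% mitochondrial UMIs were removed. A source was given by the largest hashtag count at 2 times the second or more, which removes doublets of 2 hashtags with similar counts. Doublets of 2 hashtags with counts further apart are kept, and doublets within 1 hashtag are not seen. Barcodes absent from the hashtag table are the unlisted cells. Counts were summed per source and divided by the total of the source (numpy 2.4.6, scipy 1.17.1, Python 3.11.15). Levels have exact Poisson intervals, ratios exact conditional binomial ones and shares Clopper-Pearson ones, at 95%. PCR and capture are not independent of the counts, so the intervals are too narrow for a new sample. Thinning kept 1500 UMIs per cell. Sources were also called by HTODemux (Seurat 5.3.0, R 4.3.3) and scaled by TMM (edgeR 4.0.16) as alternatives. The ratio step was checked on simulated counts. The genes, lists, marker split and the rule for named genes (members past 1.5-fold, the 4 enzymes with most UMIs, the transporters, and up to 3 genes per side of each wider list) were chosen with earlier results of these data known, and further members were named after their values were seen. The leaving out of Cck-rich cells was chosen after seeing the data. Promoter letters and gene positions come from RefSeq tables of GRCm38.p6, matched by symbol.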

Additional observations from a re-analysis of the deposited data

How the results depend on the processing

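No paired analysis was possible because each source is 1 tagged pool in 1 library and no result comes from a test. Of the medians and counts of genes past 1.5-fold, 232 values under an alternative stayed near the reported one and 34 moved. Between the lungs, the 2 genes higher were 1 in cells with at least 1500 genes and 0 at a mean of 50 CPM. The hypoxia median there was 0.50 in cells with at least 2000 genes and -0.23 in cells with 2 or more mitosis UMIs, where 1 gene was lower. For Prf1-/- bone over Prf1-/- lung, the 2 genes higher were 1 at 500 genes, at 2000 genes, at 50 CPM and without the top cell of each gene, 4 at 10 CPM and in cells with 2 or more mitosis UMIs, and 5 in cells with 0. The count of lower genes, 0, was 1 at 500 and 2000 genes, with HTODemux, with the mean of per-cell CPM, without the top cell, without barcodes over 3 times the median UMIs and without the Cck-rich cells. It was 2 with hashtags at 5 times the second and after thinning, and 4 in cells with 0 and in cells with 2 or more mitosis UMIs. For Prf1-/- bone over WT lung, the 6 genes higher were 3 at 1500 genes, after thinning and at 50 CPM, and 2 at 2000 genes and in cells with 2 or more mitosis UMIs. There 1 gene was lower at 10 CPM and 2 in cells with 2 or more mitosis UMIs, and the enzyme median was 0.31 in cells with 0. For unlisted over tagged cells, the hypoxia median was -0.042 at 2000 genes, and the enzyme median was -0.0299 after thinning and -0.023 in cells with 2 or more mitosis UMIs. Slc2a1 for bone over WT lung reversed to -0.58 at 2000 genes and -1.03 in cells with 2 or more mitosis UMIs. A higher minimum of CPM or genes leaves fewer genes or cells; otherwise the cause was not tested. Over all alternatives run, the log2 ratio of Slc16a7 for bone over Prf1-/- lung lay between 1.01 and 1.59, that of Eno1 between 0.35 and 0.93, that of Egln1 for bone over WT lung between 0.21 and 0.71, that of Bnip3 between the lungs between 0.07 and 1.07 and that of Kdm3a between 0.27 and 0.82. No scaling moved the median of all genes by 0.1. At 2000 genes only 47 bone cells are left, and genes under 20 CPM rest on too few UMIs for a call.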
